A study of Mus musculus with 8 samples.

Results

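Transcripts of 10 genes of the non-collagenous matrix were followed in the mouse distal colon: fibulin-1, fibulin-2 and fibulin-5 (*Fbln1*, *Fbln2*, *Fbln5*), fibrillin-1 (*Fbn1*), elastin (*Eln*), fibronectin (*Fn1*), tenascin-C (*Tnc*), periostin (*Postn*), thrombospondin-1 (*Thbs1*) and *Sparc*. The genes were taken by their symbols, and all 10 are among the 15859 genes of the deposited count table. RNA-seq was done on polyadenylated RNA from 8 male mice, 2 in each of 4 groups, on a mixed BALB/c x 129SvEV background. WT mice and *Hsf1* null mice, which lack the transcription factor HSF1 from the germline on and therefore in every cell type, were either left untreated (day 0) or given AOM–DSS (day 15). AOM–DSS was an injection of the carcinogen azoxymethane at 10 mg/kg at 8 weeks of age, followed from day 7 by 1.5% dextran sulfate sodium, an irritant of the colon lining, in the water for 5 days. Day 15 is the day the titles give for treated mice, whereas the labels' protocol stops at the end of DSS, and the age given for all mice is 10 weeks. The comparisons ask how transcripts of these matrix genes differ between the genotypes before and after inflammation, ahead of tumors.

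Elastic fibers consist of cross-linked elastin laid on microfibrils of fibrillin, and fibulins bind both and help the fiber to assemble. Fibronectin is pulled into fibrils by cells through their integrins and serves as a scaffold on which collagens and other matrix proteins are laid down. Tenascin-C, periostin, thrombospondin-1 and SPARC are matricellular proteins, which act on cells and on matrix assembly rather than bearing load, and are known for their induction in wounds, inflamed tissue and tumor stroma, where fibroblasts are a main source.

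HSF1 binds inverted repeats of the pentamer NGAAN, so the upstream sequence of the members was searched for the 8-base core GAANNTTC or TTCNNGAA and for the closest match to a row of 3 units, GAA, TTC and GAA with 2 free bases between units, on both strands. The RefSeq promoter table (GRCm38.p6) lists 11 start sites for 7 of the 10 members, and *Eln*, *Fn1* and *Thbs1* have no entry. None of the 11 windows of 250 bases upstream of a start site holds the 8-base core, which 12.8% of all 32851 windows of that length hold. The closest matches had 6 or 7 of the 9 fixed bases, where 93.4% of all windows reach 6 and 41.5% reach 7. TATAAA on either strand was found in 3 of the 11 windows, 2 of *Tnc* and 1 of *Postn*, and in 12.4% of all windows. The windows of *Fbln1* (chr15:85205699-85205948, plus strand), *Postn* (chr3:54360857-54361106, plus strand) and *Tnc* (chr4:64047016-64047265, minus strand) are shown because their start sites lie within 2 bases of the gene start in the annotation used for positions, and because *Postn* passed the test with days and *Fbln1* came nearest to passing between the genotypes at day 15. Capitals mark the 13 bases closest to the repeat, which match 6 of 9 fixed bases in *Fbln1* and *Postn* and, on the opposite strand, 7 of 9 in *Tnc*.
Fbln1: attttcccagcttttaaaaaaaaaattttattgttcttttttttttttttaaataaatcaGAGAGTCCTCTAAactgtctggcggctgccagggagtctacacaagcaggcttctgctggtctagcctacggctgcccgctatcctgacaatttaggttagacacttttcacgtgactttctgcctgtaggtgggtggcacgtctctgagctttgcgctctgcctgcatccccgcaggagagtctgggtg
Postn: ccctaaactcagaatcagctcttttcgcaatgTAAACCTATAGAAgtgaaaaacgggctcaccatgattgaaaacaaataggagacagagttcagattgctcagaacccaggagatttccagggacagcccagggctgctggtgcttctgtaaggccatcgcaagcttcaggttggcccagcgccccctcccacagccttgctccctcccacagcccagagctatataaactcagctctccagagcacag
Tnc: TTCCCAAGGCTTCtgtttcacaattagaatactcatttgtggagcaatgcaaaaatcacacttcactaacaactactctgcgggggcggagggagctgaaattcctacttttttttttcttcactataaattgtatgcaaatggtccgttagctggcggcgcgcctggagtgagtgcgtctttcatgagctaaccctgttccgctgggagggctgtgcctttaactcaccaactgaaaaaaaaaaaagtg
A match of this kind is a description of letters, and binding was not measured in these samples.

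Total counts per library were between 2553348 and 12440257, and the members were counted between 18 times (*Eln* in replicate 2 of *Hsf1* null day 0) and 11694 times (*Fn1* in replicate 1 of WT day 0). Levels are given as CPM, counts scaled to a common library size after TMM adjustment in edgeR. *Hsf1* itself was at 36.5 to 50.5 CPM in the 4 WT mice and at 9.09 to 13.96 CPM in the 4 *Hsf1* null mice. Replicate 1 of WT day 0 stood apart from the other 7 libraries. All mice are labelled male, but *Xist*, the RNA of the inactive X chromosome, was at 183 CPM in that library and at 0 to 4.81 CPM in the others, while the Y-linked *Kdm5d* was at 31.2 CPM there and at 20.1 to 36.7 CPM in the others. In the same library 20 genes, *Fbln2* and *Thbs1* among them, were at 20 CPM or more and at least 4 times the level of every other library. Replicate 2 of WT day 15 had 30 such genes and replicate 1 of WT day 15 had 2, none of them a member, and the other 5 libraries had 0. Fold changes and calls of single genes are also given without replicate 1 of WT day 0 where it moved the fold by over 1.5 times or changed the call. With 2 mice per group an exact two-sided test of a single gene cannot go below p = 0.333, so p-values come from edgeR's quasi-likelihood test fitted to all 14371 genes with a mean normalized count above 5, adjusted by the Benjamini-Hochberg method. A gene was called when its adjusted p was under 0.05 and its log2 fold change was beyond 1 in either direction. All 10 members were tested. In whole tissue, fewer cells of a type and less RNA per cell cannot be told apart.

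At day 15 all 10 members had a higher mean level in WT than in *Hsf1* null mice, but none passed the test. The log2 fold changes (WT over *Hsf1* null) were between 0.57 for *Tnc* and 1.91 for *Eln*, with a median of 1.04, against a median of 0.03 over all tested genes, 52.1% of which were above 0. In 9 members both WT mice exceeded both *Hsf1* null mice, as they did for 28.6% of all tested genes, and *Tnc* was the exception. edgeR called 0 of the 10 members and 3.17% of all tested genes, with adjusted p between 0.0720 for *Fbln1* and 0.620 for *Tnc*. At an unadjusted p under 0.05 there were 3 members (*Fbln1*, *Fbn1* and *Eln*) and 23.2% of all tested genes. Without replicate 1 of WT day 0, a library outside this comparison that enters the shared estimate of spread, there were 7 members (also *Fbln2*, *Fn1*, *Thbs1* and *Sparc*) and 3122 of 14261 genes, with 0 members called. DESeq2 called *Fbln1* (adjusted p = 0.00943) and 8.33% of all tested genes. The 2 *Hsf1* null mice at day 15 differed from each other in every member, replicate 2 being 1.29 to 3.39 times replicate 1. Without that replicate 2, edgeR called *Fbln1* (log2 fold change 2.23, adjusted p = 0.0106) and *Postn* (2.11, adjusted p = 0.0422) among 873 of 14357 genes, and the median of the 10 members was 2.0. Without replicate 1 instead, it was 0.60 and no member was called, among 30 of 14397 genes. In these values 1 mouse stands for its group and is assumed to vary like the others.

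**Figure D1:**
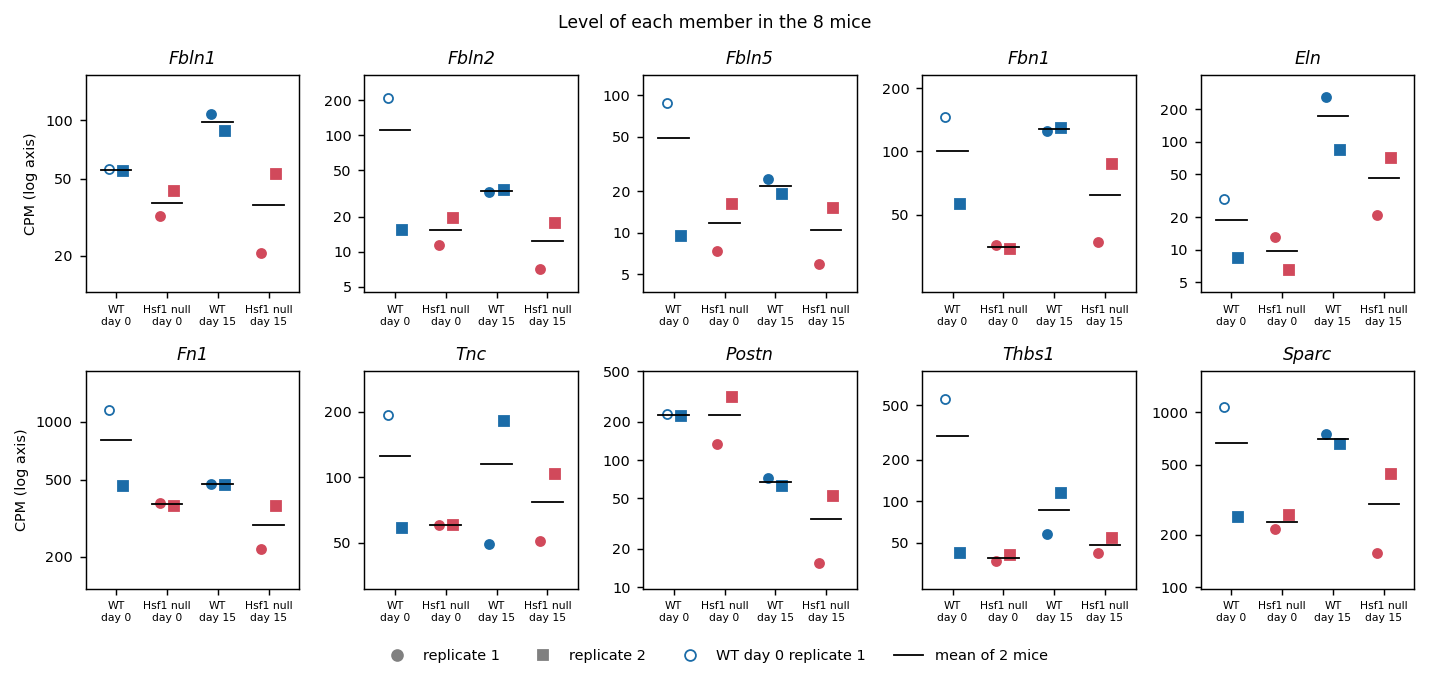
Level in CPM (log axis, a separate scale per panel) of each of the 10 members in the 8 mice, by group, with circles for replicate 1, squares for replicate 2, blue for WT, red for *Hsf1* null and a bar for the mean of 2 mice. The open circle is replicate 1 of WT day 0, which is far above the other WT day 0 mouse in *Fbln2* (209 against 15.5 CPM) and *Thbs1* (555 against 41.7 CPM) and close to it in *Fbln1* and *Postn*.

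Among the elastic fiber genes, *Eln* (ENSMUSG00000029675, GRCm38 chromosome 5, 134702593 to 134747323, minus strand) encodes elastin, the elastic core of the fiber. Untreated mice had 29.6 and 8.34 CPM of *Eln* (WT) and 13.2 and 6.47 CPM (*Hsf1* null), and treated mice 261 and 84.4 CPM (WT) and 21.1 and 70.6 CPM (*Hsf1* null). In each genotype both treated mice lay above both untreated mice, and the 2 WT mice at day 15 were the highest of all, although the lower of them was close to the higher *Hsf1* null mouse. The log2 fold change between genotypes at day 15 was 1.91 (standard error 0.71, adjusted p = 0.147 by edgeR). It was 0.88 without replicate 1 of WT day 15 and 3.03 without replicate 2 of *Hsf1* null day 15. In WT mice *Eln* rose 8.57-fold from day 0 to day 15 (log2 fold change 3.10, standard error 0.75, adjusted p = 0.0356 by edgeR). The fold change in *Hsf1* null mice was 4.40 (log2 2.14, standard error 0.75, adjusted p = 0.0828), and the difference between the genotypes in this change was 0.96 on the log2 scale (95% interval -1.29 to 3.22, adjusted p = 0.814). The value in *Hsf1* null mice was 1.01 (adjusted p = 0.408) without replicate 2 of *Hsf1* null day 15. With only the 2 groups of a genotype in the fit, *Eln* was called in *Hsf1* null mice (adjusted p = 0.0293) and not in WT mice (adjusted p = 0.0589). Without replicate 1 of WT day 0 the log2 fold change in WT mice was 4.37 (adjusted p = 0.0473). The call in WT mice was lost when any of 5 other libraries was left out: replicate 2 of WT day 0 (2.56, adjusted p = 0.187), replicate 1 (2.08, 0.118) or replicate 2 (3.70, 0.0514) of WT day 15, and replicate 1 (3.10, 0.0626) or replicate 2 (3.10, 0.0628) of *Hsf1* null day 0.

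*Fbn1* (ENSMUSG00000027204, chromosome 2, 125300594 to 125507993, minus strand) encodes fibrillin-1, the main protein of the microfibrils. It stood at 145 and 56.4 CPM (WT) and 35.7 and 34.1 CPM (*Hsf1* null) without treatment, and at 126 and 130 CPM (WT) and 36.9 and 87.3 CPM (*Hsf1* null) after AOM–DSS. In both genotype comparisons the WT mice lay above the *Hsf1* null mice, and with days the groups overlapped in WT but not in *Hsf1* null mice. The log2 fold change between genotypes was 1.54 at day 0 (standard error 0.47, adjusted p = 0.775) and 1.04 at day 15 (standard error 0.45, adjusted p = 0.206), and neither passed the test. Without replicate 1 of WT day 0 the day 0 value was 0.69 (standard error 0.46).

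*Fbln1* (ENSMUSG00000006369, chromosome 15, 85205949 to 85286535, plus strand) encodes fibulin-1, a glycoprotein of basement membranes and elastic fibers. It lies 8.70 Mb from *Hsf1* on the same chromosome. Untreated mice had 56.0 and 54.4 CPM (WT) and 32.1 and 43.1 CPM (*Hsf1* null) of it, and treated mice 107 and 88.1 CPM (WT) and 20.8 and 52.7 CPM (*Hsf1* null). WT mice at day 15 were the highest, WT mice at day 0 came next and above both *Hsf1* null groups, and the *Hsf1* null groups overlapped each other. Replicate 1 of WT day 0 did not stand apart in this gene. The log2 fold change between genotypes at day 15 was 1.41 (standard error 0.38, 95% interval 0.55 to 2.26, adjusted p = 0.0720 by edgeR) and at day 0 it was 0.57 (standard error 0.39, adjusted p = 0.842). The change from day 0 to day 15 was 0.82 in WT mice (adjusted p = 0.194) and -0.02 in *Hsf1* null mice (adjusted p = 0.979), and the genotype difference of these changes did not pass (0.84, standard error 0.54, adjusted p = 0.694).

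*Fbln2* (ENSMUSG00000064080, chromosome 6, 91212455 to 91272540, plus strand) and *Fbln5* (ENSMUSG00000021186, chromosome 12, 101746565 to 101819055, minus strand) encode fibulins found with elastic fibers, and fibulin-5 is needed for fiber assembly. *Fbln2* measured 209 and 15.5 CPM in untreated WT mice and 11.5 and 19.4 CPM in untreated *Hsf1* null mice. After AOM–DSS it measured 32.9 and 34.1 CPM in the WT and 7.14 and 17.7 CPM in the *Hsf1* null group. *Fbln5* stood at 88.7 and 9.53 CPM (WT) and 7.31 and 16.2 CPM (*Hsf1* null) without treatment, and at 24.7 and 19.0 CPM (WT) and 5.89 and 15.1 CPM (*Hsf1* null) after AOM–DSS. In both genes replicate 1 of WT day 0 was far above every other mouse, replicate 2 of that group lay among the *Hsf1* null mice, and the WT mice at day 15 lay above all 4 *Hsf1* null mice. The log2 fold change between genotypes at day 15 was 1.43 for *Fbln2* (standard error 0.86, adjusted p = 0.346) and 1.05 for *Fbln5* (standard error 0.80, adjusted p = 0.460). The standard errors were 0.46 (adjusted p = 0.115) and 0.52 (adjusted p = 0.274) without replicate 1 of WT day 0, which enters this comparison through the shared spread. The sign of the change with days in WT mice rested on replicate 1 of WT day 0: it was -1.77 for *Fbln2* and -1.21 for *Fbln5* with that library and 1.11 and 1.20 without it, with no adjusted p under 0.05 in either fit. Without replicate 2 of WT day 0 instead, *Fbln2* was called as lower with days in WT mice (-2.62, adjusted p = 0.0356), as was *Thbs1* (-2.68, adjusted p = 0.0253), among 133 of 14577 genes.

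*Fn1* (ENSMUSG00000026193, chromosome 1, 71585520 to 71653200, minus strand) encodes fibronectin. It measured 1146 and 465 CPM in untreated WT mice and 382 and 365 CPM in untreated *Hsf1* null mice. After AOM–DSS it measured 477 and 473 CPM in the WT and 218 and 368 CPM in the *Hsf1* null group. Replicate 1 of WT day 0 was more than 2 times any other mouse, and the other 3 WT mice lay close together and above all 4 *Hsf1* null mice. The log2 fold change between genotypes was 1.11 at day 0 (standard error 0.41, adjusted p = 0.775) and 0.70 at day 15 (standard error 0.41, adjusted p = 0.330). Without replicate 1 of WT day 0, the day 0 value was 0.32 (standard error 0.37) and the change with days in WT mice was 0.03 in place of -0.77.

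Among the matricellular genes, *Postn* (ENSMUSG00000027750, chromosome 3, 54361109 to 54391037, plus strand) encodes periostin, an integrin ligand that also promotes collagen cross-linking. It stood at 231 and 220 CPM (WT) and 134 and 314 CPM (*Hsf1* null) without treatment, and at 71.6 and 62.1 CPM (WT) and 15.5 and 52.6 CPM (*Hsf1* null) after AOM–DSS. All 4 untreated mice lay above all 4 treated mice, and replicate 1 of WT day 0 did not stand apart. In *Hsf1* null mice *Postn* fell 6.54-fold from day 0 to day 15 (log2 fold change -2.71, standard error 0.54, adjusted p = 0.0197 by edgeR). In WT mice the log2 fold change was -1.75 (standard error 0.52, 95% interval -2.91 to -0.60, adjusted p = 0.0641 by edgeR and 0.00362 by DESeq2). The difference between the genotypes in this change was 0.95 (standard error 0.72, adjusted p = 0.737). The call in *Hsf1* null mice was lost without replicate 2 of *Hsf1* null day 0 (-1.98, adjusted p = 0.168) and without replicate 1 of *Hsf1* null day 15 (-2.08, adjusted p = 0.0510). At day 15 the 2 WT mice were above the 2 *Hsf1* null mice (log2 fold change 0.97, standard error 0.52, adjusted p = 0.289), and at day 0 the genotypes overlapped (0.01, standard error 0.50).

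*Tnc* (ENSMUSG00000028364, chromosome 4, 63959785 to 64047015, minus strand) encodes tenascin-C, a hexameric glycoprotein that weakens cell adhesion to fibronectin. It measured 192 and 58.4 CPM in untreated WT mice and 60.2 and 60.0 CPM in untreated *Hsf1* null mice. After AOM–DSS it measured 49.1 and 181 CPM in the WT and 51.0 and 103 CPM in the *Hsf1* null group. In every group except *Hsf1* null day 0, 1 mouse was high and the other low, so that *Tnc* overlapped in all 4 comparisons of groups. Its log2 fold change between genotypes at day 15 was 0.57 (95% interval -0.83 to 1.98, adjusted p = 0.620) and turned to -0.65 without replicate 2 of WT day 15.

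*Thbs1* (ENSMUSG00000040152, chromosome 2, 118111876 to 118127133, plus strand) encodes thrombospondin-1, which inhibits vessel growth and activates latent TGF-beta. It stood at 555 and 41.7 CPM (WT) and 37.0 and 41.0 CPM (*Hsf1* null) without treatment, and at 58.0 and 114 CPM (WT) and 41.7 and 53.8 CPM (*Hsf1* null) after AOM–DSS. Apart from replicate 1 of WT day 0, the 3 untreated mice lay within a narrow range and the 2 WT mice at day 15 were highest. The log2 fold change between genotypes was 0.85 at day 15 (standard error 0.81, adjusted p = 0.565), with a standard error of 0.34 (adjusted p = 0.187) when replicate 1 of WT day 0 was left out. At day 0 it was 2.95 (standard error 0.87, adjusted p = 0.775) with replicate 1 of WT day 0 and 0.10 (standard error 0.44) without it. The change with days in WT mice was -1.81 (adjusted p = 0.187) with that library and 1.04 (adjusted p = 0.206) without it.

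*Sparc* (ENSMUSG00000018593, chromosome 11, 55394500 to 55423183, minus strand) encodes a collagen-binding glycoprotein that acts in collagen fibril assembly. It measured 1074 and 253 CPM in untreated WT mice and 215 and 258 CPM in untreated *Hsf1* null mice. After AOM–DSS it measured 752 and 662 CPM in the WT and 157 and 442 CPM in the *Hsf1* null group. The 2 WT mice at day 15 lay above every other mouse except replicate 1 of WT day 0. The log2 fold change between genotypes at day 15 was 1.24 (standard error 0.61, adjusted p = 0.256), and the change with days in WT mice was 0.09 (standard error 0.60) with replicate 1 of WT day 0 and 1.48 (standard error 0.56, adjusted p = 0.158) without it. The value in *Hsf1* null mice was 0.34 (standard error 0.61, adjusted p = 0.729).

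Levels between genes were compared as CPM per kilobase of merged exons. On that scale *Sparc* was the highest member in all 8 mice, at 41.5 to 283 CPM per kb (up to 198 without replicate 1 of WT day 0), and *Fn1* came next in 7 mice, the exception being replicate 2 of *Hsf1* null day 0, where *Postn* (36.1) was above *Fn1* (31.3). *Fbln5* (0.85 to 12.8 CPM per kb) and *Eln* at day 0 (0.80 to 3.66) were at the low end, and without replicate 1 of WT day 0, which held the highest of these values, their upper ends were 3.57 and 1.63. In WT mice at day 15 *Eln* was at 32.2 and 10.4 CPM per kb, and in replicate 1 it was the third highest member. The exons of *Fbn1*, *Eln*, *Fn1*, *Tnc* and *Thbs1* overlap a gene annotated on the other strand, and whether reads were counted by strand is not given in the sources used here.

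At day 0 the genotypes were compared to see whether the members differ without treatment. All 10 members had log2 fold changes above 0 (50.8% of all tested genes did), from 0.01 for *Postn* to 2.95 for *Thbs1*, with a median of 1.30. edgeR called 0 members and 0 of all tested genes (0%), with 6 members (*Fbln2*, *Fbln5*, *Fbn1*, *Fn1*, *Thbs1* and *Sparc*) and 904 genes (6.29%) at an unadjusted p under 0.05, and DESeq2 called 0 members and 18 genes (0.125%). In 4 members both WT mice exceeded both *Hsf1* null mice (*Fbln1*, *Fbn1*, *Fn1* and *Thbs1*), as for 18.4% of all tested genes. Without replicate 1 of WT day 0 the median was 0.07, 6 of 10 members were above 0 (47.2% of all tested genes) and no member had an unadjusted p under 0.05 (1.96%). Without replicate 2 of that group instead, *Fbln2* (3.78, adjusted p = 0.0254) and *Thbs1* (3.82, adjusted p = 0.0105) were called among 17 genes, with replicate 1 as the 1 WT mouse.

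**Figure D2:**
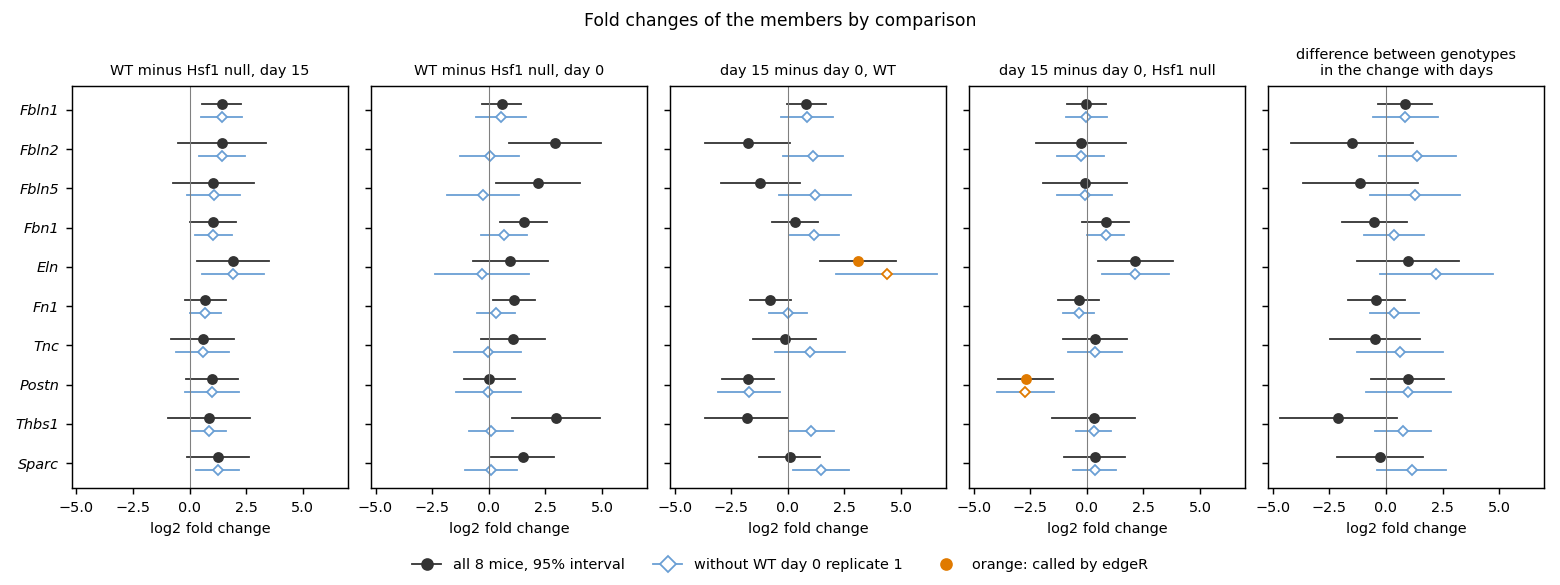
Log2 fold change of each member (horizontal axis) with its 95% interval, in 5 panels for the 5 comparisons. Filled circles are from all 8 mice, open diamonds from 7 mice without replicate 1 of WT day 0, and orange marks a call by edgeR; without that library the points, but not the intervals, hardly move in the panels on day 15 genotypes and on *Hsf1* null mice, the number of members whose interval lies above 0 at day 15 goes from 3 to 7, and *Fbln2*, *Fbln5*, *Fn1*, *Tnc* and *Thbs1* change sign in the panel on WT mice with days.

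From day 0 to day 15 in WT mice, *Eln* was the 1 member called by edgeR, where 7.74% of all tested genes were called (3.47% as higher), and DESeq2 called *Eln* and *Postn* (12.1%). Without replicate 1 of WT day 0, 9 of the 10 members had a log2 fold change above 0, where 52.3% of all tested genes did, the median was 1.08, and *Eln* was again the 1 member called (3.4%). With that library 4 were above 0 (50.2%) and the median was -0.45. *Postn* was the member below 0 without it, at -1.72 (adjusted p = 0.141). In the WT mice, *Fbln1* and *Eln* were above both untreated mice in both treated mice, as were 31% of all tested genes, and *Postn* was below them, as were 31.5%. In *Hsf1* null mice, *Postn* was the 1 member called by edgeR, where 11.8% of all tested genes were called (6.48% as lower), and DESeq2 also called *Postn* alone (15.3%). In those mice 5 of 10 members were above 0 (52.1% of all tested genes), with a median of 0.14. *Eln*, *Fbn1* and *Thbs1* were above both untreated mice in both treated *Hsf1* null mice, as were 31% of all tested genes, and *Postn* was below them, as were 30.3%.

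A genotype difference in the change with days was called for 0 of 10 members and 1 of all tested genes (0.00696%) by edgeR, and for 0 members and 130 genes (0.905%) by DESeq2. No member and 8.62% of all tested genes had an unadjusted p under 0.05. The values were above 0, the direction of a larger rise or smaller fall in WT mice, in 3 members (*Fbln1*, *Eln* and *Postn*; 49.8% of all tested genes) and in all 10 without replicate 1 of WT day 0 (53.5%), where they ran from 0.35 for *Fbn1* to 2.23 for *Eln*. These comparisons share mice: the WT mice at day 15 enter both the genotype comparison at day 15 and the change with days, and replicate 1 of WT day 0 enters 3 of the 5 comparisons directly.

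Of 19 other fibulins and elastic fiber genes, 18 were in the count table and 17 were tested. At day 15, 15 of the 17 had a log2 fold change (WT over *Hsf1* null) above 0 (median 0.92), as had 52.1% of all tested genes. Of the 17, 0 were called, against 3.17% of all tested genes. With days, *Hmcn1* (hemicentin-1, a very large protein of the fibulin family) fell in WT mice (-2.51, standard error 0.44, adjusted p = 0.0135; -2.64, adjusted p = 0.0334 without replicate 1 of WT day 0) and in *Hsf1* null mice (-1.65, standard error 0.43, adjusted p = 0.0365). Its level was 38.8 to 53.5 CPM in the 4 untreated mice and 5.28 to 19.4 CPM in the 4 treated mice, with no overlap. *Emilin1*, an elastic fiber glycoprotein, rose in WT mice (1.58, standard error 0.33, adjusted p = 0.0245) and in *Hsf1* null mice (1.22, standard error 0.34, adjusted p = 0.0428), although neither passed without replicate 1 of WT day 0 (adjusted p = 0.0774 and 0.0578). In *Hsf1* null mice *Efemp1* (fibulin-3) fell by 1.98 on the log2 scale (adjusted p = 0.0404) and *Mmrn1* (multimerin-1) fell by 2.88 (adjusted p = 0.0308), the latter from 17.7 and 41.7 CPM to 0.931 and 6.82 CPM. In all, 1 gene of the list rose and 1 fell in WT mice, and 1 rose and 3 fell in *Hsf1* null mice. Of all tested genes, 7.74% were called in WT mice and 11.8% in *Hsf1* null mice.

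Of 27 other matricellular and adhesive glycoproteins, 25 were in the table and 23 were tested. At day 15, 16 of these had a log2 fold change above 0 (median 0.38), as had 52.1% of all tested genes. Of all tested genes edgeR called 3.17% at day 15, and with days 7.74% in WT mice and 11.8% in *Hsf1* null mice. *Nid2* (nidogen-2, a basement membrane linker) was the 1 gene of the list called at day 15, at 67.8 and 67.7 CPM (WT) against 10.4 and 18.6 CPM (*Hsf1* null). Its log2 fold change was 2.22 (standard error 0.38, adjusted p = 0.0225). It also rose with days in WT mice (1.59, adjusted p = 0.0320; 2.16, adjusted p = 0.0427 without replicate 1 of WT day 0), in which 1 gene of the list rose and 2 fell. The 2 that fell were *Sparcl1*, the closest relative of *Sparc* (-1.25, adjusted p = 0.0320), and *Ctgf* (-2.36, adjusted p = 0.0303), but without replicate 1 of WT day 0, in which *Ctgf* was at 133 CPM, neither passed (-1.33, adjusted p = 0.0774, and -1.12, adjusted p = 0.188). *Smoc1*, a relative of *Sparc*, was called as higher there without that library (4.01, adjusted p = 0.0317) but not with it (2.11, adjusted p = 0.0699). *Sparcl1* fell in *Hsf1* null mice from 185 and 247 CPM to 55.5 and 73.8 CPM (-1.74, standard error 0.30, adjusted p = 0.0140). *Nov* also fell there (-2.10, adjusted p = 0.0454), but not past the threshold without replicate 1 of WT day 0 (adjusted p = 0.0577). No gene of the list was called as higher in *Hsf1* null mice with all 8 libraries, and *Spp1* (osteopontin) was called without replicate 1 of WT day 0 (1.24, adjusted p = 0.0393, against adjusted p = 0.243 with it).

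All 14 receptors that bind the members were tested, and 13 had a log2 fold change above 0 at day 15 (median 0.93), as had 52.1% of all tested genes. Of all tested genes, 3.17% were called in that comparison. *Cd47*, a receptor of thrombospondin-1, was the 1 called, at 142 and 178 CPM in WT mice and 37.5 and 63.9 CPM in *Hsf1* null mice (1.65, standard error 0.33, adjusted p = 0.0336). With days, *Itgb3*, the beta chain of a receptor for fibronectin, periostin and other ligands, rose in WT mice (1.50, adjusted p = 0.0466; 1.87, adjusted p = 0.0863 without replicate 1 of WT day 0). *Itga8*, an alpha chain that binds fibronectin and tenascin-C, fell in *Hsf1* null mice (-3.08, adjusted p = 0.0313), from 6.41 and 8.62 CPM (78 and 24 counts) to 0.776 and 0.936 CPM (5 and 7 counts). None of the 3 lists had a gene called between the genotypes at day 0 by edgeR, which called 0 of all tested genes there.

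**Figure D3:**
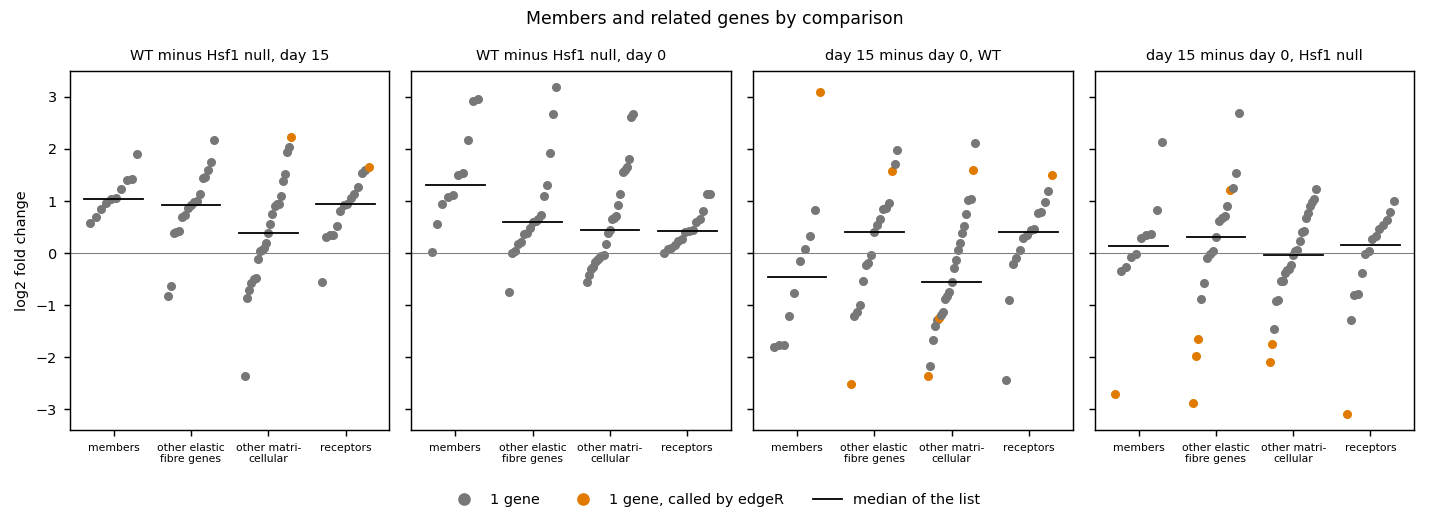
Log2 fold change (vertical axis) of the 10 members and of the tested genes of the 3 related lists, sorted within each list, in 4 panels for the 4 comparisons of groups from all 8 mice. Each point is 1 gene, orange points were called by edgeR and bars are medians; at day 15 all 4 medians are above 0 (1.04, 0.92, 0.38 and 0.93), and most called genes are in the panels on days.

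Summed over the 10 members, untreated mice had 3726 and 1183 CPM (WT) and 928 and 1158 CPM (*Hsf1* null), and treated mice 1958 and 1847 CPM (WT) and 576 and 1263 CPM (*Hsf1* null). *Fn1* and *Sparc* carried most of this sum, as in replicate 1 of WT day 15 with 477 and 752 CPM. Over 10 fibroblast markers the sum was 2747 and 1080 CPM (WT) and 921 and 1340 CPM (*Hsf1* null) in untreated mice, and 2693 and 2664 CPM (WT) and 539 and 1676 CPM (*Hsf1* null) in treated mice. The order of the 8 mice was the same in both sums except that the replicate 2 mice of the untreated groups were exchanged, with replicate 1 of WT day 0 highest and replicate 1 of *Hsf1* null day 15 lowest. At day 15 all 10 fibroblast markers had a higher mean in WT mice (median log2 fold change 1.06, 0 called), as had all 10 endothelial markers (1.16, 1 called), all 10 macrophage and monocyte markers (1.72, 3 called, 2 without replicate 1 of WT day 0) and all 9 tested neutrophil markers (4.32, 6 called). Of 10 smooth muscle markers 1 was higher in WT mice at day 15 (median -0.81, 0 called), and the sum was 3726 and 2154 CPM in WT mice against 5348 and 6128 CPM in *Hsf1* null mice. All 10 epithelial markers were lower in WT mice (median -0.47, 0 called), with sums of 15660 and 16903 CPM against 24600 and 21460 CPM.

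No fibroblast, endothelial, macrophage, smooth muscle or epithelial marker was at 0 in any mouse, and *Ngp*, a neutrophil granule gene, was at 0 in 6 mice. Platelet markers, relevant because platelets store thrombospondin-1, summed at day 15 to 48.5 and 32.2 CPM (WT) against 14.1 and 26.3 CPM (*Hsf1* null), over the 5 of 8 genes in the table. *Pf4* made up most of this sum in the WT mice, at 36.3 and 23.3 CPM (WT) against 2.95 and 13.8 CPM (*Hsf1* null). Only 2 of the 4 platelet markers tested were higher in WT mice (median 0.24 on the log2 scale), and *Gp1bb* and *Gp6* were lower. The sum of 6 mesothelial markers was 296 and 249 CPM (WT) against 157 and 194 CPM (*Hsf1* null) at day 15. Most of it was *Krt7*, at 266 and 235 CPM (WT) against 151 and 179 CPM (*Hsf1* null). Of the 4 mesothelial markers tested, 3 were above 0 (median log2 fold change 0.77). The tested markers of enteric glia (6 of 6), adipocytes (7 of 8) and skeletal muscle (7 of 10) had median log2 fold changes of 0.33, -0.13 and -0.06 at day 15, the last -0.54 without replicate 1 of WT day 0. The part of these cell types in the members' values was not tested. As a ratio to the summed level of *Pdgfra* and *Pdgfrb*, receptors of fibroblasts and pericytes chosen from the fibroblast list after its values were seen, the members' sum at day 15 was 16.0 and 13.4 (WT) against 13.4 and 13.7 (*Hsf1* null). The same ratio at day 0 was 28.9 and 20.4 (WT) against 17.2 and 11.9 (*Hsf1* null). Over the summed level of all 10 fibroblast markers, the members' sum at day 15 was 0.727 and 0.693 (WT) against 1.07 and 0.753 (*Hsf1* null), with both WT mice below both *Hsf1* null mice, and at day 0 it was 1.36 and 1.10 (WT) against 1.01 and 0.864 (*Hsf1* null), with both WT mice above. At day 15 the ratio to *Pdgfra* and *Pdgfrb* thus overlapped between the genotypes, whereas the ratio to all 10 markers was lower in both WT mice. The members' summed CPM was higher in both WT mice. At day 0 both ratios were higher in both WT mice. What these ratios say about cell number was not tested.

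**Figure D4:**
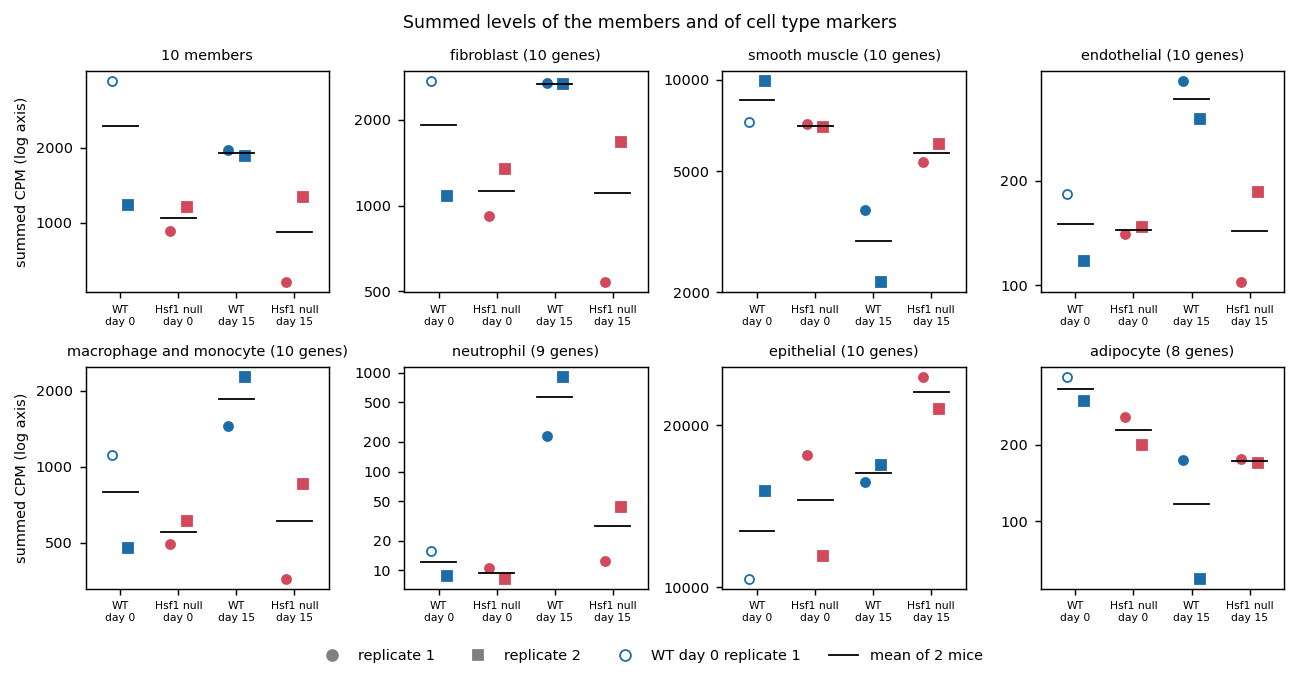
Summed level in CPM (log axis, a separate scale per panel) of the 10 members and of 7 lists of cell type markers in the 8 mice, with symbols as in the plot of single members. The members, fibroblast, endothelial and macrophage panels share a high replicate 1 of WT day 0 within its group, high WT mice at day 15 and a low replicate 1 of *Hsf1* null day 15, and the smooth muscle panel is lowest in WT mice at day 15.

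Over the 8 mice, the 45 pairs of members had Pearson's r of log2 CPM between -0.47 and 0.98, with a median of 0.68, and a median of 0.65 over the 7 mice without replicate 1 of WT day 0. These values describe mice that also share group and cell type makeup, and carry no test. *Fbln2* and *Fbln5* were each among the 2 tested genes closest to the other (r = 0.98, and 0.95 over 7 mice). The gene closest to *Eln* was *Tie1*, a receptor of endothelial cells (r = 0.99), those closest to *Fbn1* included the collagen gene *Col1a2* (0.98), and the closest to *Sparc* was the collagen gene *Col5a2* (0.98). *Fn1* was closest to *Vim*, the intermediate filament of mesenchymal cells (0.97, and 0.88 over 7 mice), and *Thbs1* to *Cyr61*, another matricellular gene (0.99, and 0.92 over 7 mice). *Tnc* was closest to *Dkk2*, a secreted Wnt regulator (0.98), *Fbln1* to *Tmem119* (0.98) and *Postn* to *Ankrd28* (0.98). The second closest genes were *Rfc5* for *Fbln1*, *Grb10* for *Fbln5*, *Dpagt1* for *Eln*, *Lrrc8c* for *Fn1*, *Tnfsf15* for *Tnc*, *Copb1* for *Postn*, *Vgll3* for *Thbs1* and *Rab34* for *Sparc*, with r from 0.94 to 0.98. Over the 7 mice r was 0.695 for *Vgll3*, 0.896 for *Grb10* and 0.92 to 0.99 for the other 6 of these. *Fads1* was the closest to *Fbln2* (0.98, and 0.95 over 7 mice) and *Chst15* to *Fbn1* (0.99, and 0.98 over 7 mice).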

How the data were processed

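RNA from the distal colon of 8 mice was sequenced after library preparation with the SENSE mRNA-seq kit. Per the labels and the study's methods, the authors used STAR and the mm10 genome. They deposited raw counts per gene, by symbol, and a score table in which each of those counts was divided by its sample's DESeq2 size factor, which served here only to check the normalization. The counting program, its strand setting and the annotation are not given in the sources used here. Groups and replicate numbers follow the labels. The members and gene lists were chosen with earlier results of these data known.

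The deposited counts were tested with edgeR 4.0.16 in R 4.3.3 (TMM, quasi-likelihood test, prior degrees of freedom 5.97), in 1 model of the 4 groups. The tests covered 14371 of 15859 genes, those whose mean normalized count exceeded 5, with Benjamini-Hochberg adjustment inside each of 5 comparisons. Intervals are 95%. The fit was tested on simulated data. Depth was between 2553348 and 12440257 counts. The log2 CPM used for correlations had a prior count of 2. P-values rest on the spread between mice of the same group, estimated over all 4 groups together and drawn toward that of other genes. Same-numbered mice of different groups are different animals. Gene positions and exon lengths are from GENCODE M21 on GRCm38 (mm10). Named genes are the members, *Hsf1*, the genes called in each related list (up to 4 per comparison) and the 2 genes closest to each member. The library that stood apart and its genes, and the *Pdgfra* and *Pdgfrb* ratio, were chosen after their values were seen. Alternatives were DESeq2 1.42.0, its size factors in edgeR, other filters on low counts, a call rule with no minimum fold change, a block for the replicate number, only the groups compared, counts thinned to the smallest library, and each library left out. A block with the WT day 0 mice exchanged was added after the data were seen.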

Additional observations from a re-analysis of the deposited data

How the results depend on the processing

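With 2 mice per group and totals as low as 2553348 counts, a p that misses the threshold does not show that levels did not differ. Of 440 log2 fold changes of members under settings other than leaving out a library, 430 kept their sign and their side of the threshold. The 440 include those under the rule with no minimum fold change, which are the main fit's values and could not turn. Those that turned were *Postn* between the genotypes at day 0, at -0.012 with DESeq2 and at -0.0089 with its size factors in edgeR, and *Sparc* in the genotype difference of the change with days, at 0.26 with the exchanged block. Of 400 values with 1 library left out, 349 kept both.

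The day 15 genotype comparison called 0 members and 455 genes. It called 1 member (*Fbln1*) and 1197 genes with DESeq2, 6 genes when only the groups compared were fitted, and, with libraries left out, 0 to 2 members and 12 to 873 genes. It fell to 12 without either *Hsf1* null mouse at day 0, to 19 without replicate 2 of WT day 15 and to 30 without replicate 1 of *Hsf1* null day 15. The day 0 comparison called 0 genes, 18 with DESeq2, and 0 to 2 members and 0 to 17 genes with libraries left out, the upper end without replicate 2 of WT day 0. The WT comparison with days called 1 member and 1112 genes, 2 members (*Eln* and *Postn*) and 1737 genes with DESeq2, and 0 to 2 members and 92 to 1336 genes with libraries left out, at 92 without replicate 2 of WT day 15, 133 without replicate 2 and 485 without replicate 1 of WT day 0. Fitted alone, those 2 groups gave *Postn* in place of *Eln*, among 950 of 14473 genes. For the *Hsf1* null group, 1 member and 1692 genes were called, 2 members (*Eln* and *Postn*) and 1380 of 14136 genes when those groups were fitted alone, and 0 to 1 member and 0 to 1891 genes with libraries left out, at 0 without replicate 2 of *Hsf1* null day 0, and at 487 and 361 without replicate 1 and replicate 2 of *Hsf1* null day 15. The genotype difference of the change with days was called for 1 gene, for 130 with DESeq2, for 2 with no filter on low counts, for 2 with thinned counts, and for 0 to 50 with libraries left out, at 50 without replicate 2 of *Hsf1* null day 15. The cause of these shifts was not tested.

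With the replicate number as a block, the number of calls was 343, 0, 868, 1505 and 2 genes in the 5 comparisons, and the same members were called as without it. Across genes, the departures of mice with the same number from their groups' means had correlations of 0.11 to 0.15 among the 3 groups other than WT day 0 and of -0.29 to 0.040 between WT day 0 and each of them. Not every pair was above 0.1 and the labels tie no number to a litter or day, so no block was used, and whether the numbers pair the mice was not settled. With the WT day 0 mice exchanged in the block, 1 member (*Fbln1*) and 1314 genes were called between the genotypes at day 15, 2 members (*Eln* and *Postn*) and 1856 genes with days in WT mice, 2296 genes in *Hsf1* null mice and 54 genes for the difference of the changes.

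The following log2 fold changes turned when a library was left out, with their lowest and highest values. Between the genotypes they were *Tnc* at day 15 (-0.65 to 1.23) and *Fbln5* (-0.24 to 2.97), *Eln* (-0.32 to 1.64), *Tnc* (-0.042 to 1.66) and *Postn* (-0.48 to 0.75) at day 0. With days in WT mice they were *Fbln2* (-2.62 to 1.11), *Fbln5* (-2.003 to 1.20), *Fbn1* (-0.17 to 1.18), *Fn1* (-1.26 to 0.027), *Tnc* (-1.37 to 0.97), *Thbs1* (-2.68 to 1.04) and *Sparc* (-0.59 to 1.48). In the *Hsf1* null group they were *Fbln1* (-0.84 to 0.51), *Fbln2* (-1.06 to 0.25), *Fbln5* (-0.91 to 0.53), *Tnc* (-0.23 to 0.78) and *Sparc* (-0.59 to 0.91). In the genotype difference of the changes they were *Fbln2* (-2.37 to 1.39), *Fbln5* (-1.93 to 1.30), *Fbn1* (-1.01 to 0.35), *Eln* (-0.069 to 2.23), *Fn1* (-0.92 to 0.38), *Tnc* (-1.73 to 0.62), *Thbs1* (-2.98 to 0.75) and *Sparc* (-0.94 to 1.14).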
